A study of Mus musculus with 6 samples.

Results

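Sox4, Sox11 and Sox12, the 3 SoxC genes, and Sox2, Sox9 and Sox8, 3 Sox genes of progenitor and glial cells, were followed across cell types and genotypes of the mouse retina at embryonic day 14. The 6 genes were chosen by name, from 27998 genes in the deposited count matrix. RNA of 67050 single retinal cells was counted with 10x Genomics 3' v2 chemistry, in which a unique molecular identifier (UMI) marks each captured RNA molecule. The 6 libraries formed 3 groups of 2. The Bax het Atoh7 null group was heterozygous for Bax and null for Atoh7. The Bax null group was null for Bax, and its sample titles named no Atoh7 mutation. The Bax null Atoh7 null group, called the double mutant below, was null for both. Atoh7 is a transcription factor that progenitors need to make ganglion cells, and Bax is a protein that executes apoptosis. Every group carried at least 1 mutant Bax allele, and no group was wild type for both genes. The labels do not give the strain, the number of embryos behind a library or whether replicates came from separate animals. The p-values therefore bear only on these libraries, and they rest on a spread estimated with help from all tested genes.

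Sox proteins are transcription factors that bind DNA through a high mobility group box and usually act with partner proteins. Sox2, of the SoxB1 subgroup, maintains retinal progenitors, and Sox9 and Sox8, of the SoxE subgroup, are known from progenitors and Muller glia. Sox4 and Sox11 are known to promote neuronal differentiation and are needed together for ganglion cell formation, while Sox12 is the less studied member of the subgroup. The passage from progenitor to neuron is commonly described as a switch from SoxB1 to SoxC proteins.

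On the GRCm38 assembly, the annotation (GENCODE vM21) places Sox4 at chr13:28948919-28953713 and Sox11 at chr12:27334264-27342574, both on the minus strand and both with 1 exon. Sox2 lies at chr3:34650405-34652461 on the plus strand, with 1 exon, inside the noncoding gene Sox2ot of the same strand, which has no row in the matrix. Sox12 (chr2:152393611-152398063, minus strand) and Sox9 (chr11:112782224-112787760, plus strand) have 3 exons each. Sox8 (chr17:25565892-25570686, minus strand) has 7 exons and overlaps 2810468N07Rik on the opposite strand, which also has no row in the matrix.

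Start-site sequences of Sox4, Sox11 and Sox2, the members with the most UMIs, are shown because Atoh7, like other proneural proteins of the basic helix-loop-helix family, binds E-boxes. Each is the 250 bases before the RefSeq start (GRCm38.p6), printed 5′ to 3′ on the strand of the gene, with every CANNTG in capitals. The Sox4 window is chr13:28953700-28953949, the Sox11 window chr12:27342719-27342968 and the Sox2 window chr3:34649745-34649994. The RefSeq starts differ from the GENCODE positions above. The Sox4 window overlaps the gene as placed there, and the Sox11 and Sox2 windows lie apart from it.
Sox4: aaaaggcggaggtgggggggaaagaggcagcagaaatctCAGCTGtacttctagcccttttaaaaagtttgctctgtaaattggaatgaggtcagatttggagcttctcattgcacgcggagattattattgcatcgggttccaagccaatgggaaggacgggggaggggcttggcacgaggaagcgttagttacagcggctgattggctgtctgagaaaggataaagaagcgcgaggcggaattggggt
Sox11: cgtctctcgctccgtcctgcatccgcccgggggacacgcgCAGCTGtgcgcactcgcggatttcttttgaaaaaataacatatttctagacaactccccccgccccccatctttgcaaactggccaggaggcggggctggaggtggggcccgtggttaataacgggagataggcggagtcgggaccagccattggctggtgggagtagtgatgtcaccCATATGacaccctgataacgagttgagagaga
Sox2: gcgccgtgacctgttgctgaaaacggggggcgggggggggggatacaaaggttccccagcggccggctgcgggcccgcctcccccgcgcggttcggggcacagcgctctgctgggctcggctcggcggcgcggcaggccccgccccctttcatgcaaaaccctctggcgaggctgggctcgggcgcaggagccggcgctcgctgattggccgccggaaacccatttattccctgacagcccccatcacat
Sox4 had CAGCTG at position -211 from the start, and Sox11 had CAGCTG at -210 and CATATG at -32. The Sox2 window held no CANNTG. It held ACAAAG, one of the forms that Sox proteins bind, at -206 (lower case above). Among 27025 start-site windows of the same length, 66.0% held CANNTG on at least 1 strand, 12.8% held CAGCTG and 16.5% held ACAAAG on either strand. The C and G share of the windows was 50.8% for Sox4, 58.0% for Sox11 and 72.0% for Sox2, against a median of 52.0% over all windows. These matches describe letters only, and binding was not measured.

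Several properties of the libraries bear on the values below. The libraries held 9269 to 14730 cells and 22463515 to 66594431 UMIs. The 2 Bax null libraries stood apart from the other 4, with median UMIs per cell of 5660.5 and 6804 against 1634 to 2632, and 3.8% and 3.9% mitochondrial UMIs against 1.06% to 1.15%. The mitochondrial gene mt-Atp6 stood at 8740 and 9020 CPM in them and at 3.74 to 4.55 in the other 4, and 3 blood markers summed to 321 to 661 CPM over their cell types, against 2.42 to 179. In contrasts with Bax null, these differences and the genotype cannot be told apart. The targeted genes gave the labels a partial check. Atoh7 had 0 UMIs in the 4 Atoh7 null libraries and 5.96 and 6.88 CPM in Bax null, where CPM are UMIs scaled to a common library total. Bax stood at 17.1 and 15.0 CPM in Bax null, against 143.5 and 107.7 with 1 intact allele. In the libraries labelled double mutant, it stood at 47.7 and 11, so that replicate 1 lay above the other 3 Bax null libraries.

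The same 2 libraries shared 2596 cell barcodes, 17.6% of the cells of replicate 1 and 22.0% of those of replicate 2, whereas every other pair of libraries shared 126 to 223. Of the shared barcodes, 89.4% carried the same cell type label in both libraries. The log2 ratio of a shared barcode's UMIs in replicate 1 to those in replicate 2 had a median of -1.395 and quartiles of -1.43 and -1.36, whereas between the Bax het Atoh7 null libraries the quartiles were -0.36 and 0.86. Whether the 2 double mutant libraries are independent was not tested, and the tests below count them as 2. In replicate 1 the cells with shared barcodes held 16.9 CPM of Bax and the remaining cells 51.5. With these barcodes left out of both libraries, the number of members called in each genotype contrast went from 19, 1 and 18 to 19, 0 and 18, in the order of the contrasts below. The mean log2 ratios between cell types stayed within 1 SD of the values given.

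The authors' labels divided the cells into retinal progenitor cells (RPC), neurogenic cells, retinal ganglion cells (RGC), cones and horizontal cells. UMIs of each gene were summed over the cells of a type in a library and scaled to CPM of that type. The labels came from clustering of the same cells, and 5 of the 6 members (all but Sox12) were among the genes the authors had marked for ordering the cells. Differences between cell types are therefore descriptions, given without a test. The RPC markers (Hes1, Ccnd1 and others) summed to 6086 to 8351 CPM in RPC, and the RGC markers (Pou4f2, Isl1, Gap43 and others) to 8049 to 12584 CPM in RGC. The cells labelled horizontal held 1195 to 2072 CPM of horizontal cell markers and also 1036 to 1593 CPM of amacrine markers, so the label covers cells with markers of both types.

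Both main SoxC genes stood higher in neurogenic cells than in progenitors in every library, and Sox2 and Sox9 stood lower. Averaged over the 6 libraries, Sox4 was 3.0-fold and Sox11 2.63-fold higher in neurogenic cells, while Sox2 was 1.38-fold and Sox9 1.86-fold lower. The same 4 genes separated further between progenitors and ganglion cells, with Sox4 8.25-fold higher and Sox2 5.91-fold lower. Of 12106 genes with a mean of at least 1 CPM, 29.3% were higher and 27.4% lower in neurogenic cells in all 6 libraries, so a change shared by all libraries was common.

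Sox4 stood lowest in RPC, then in order higher in neurogenic cells, cones, RGC and horizontal cells, in each of the 6 libraries. In RPC it stood at 395 and 431 CPM in the Bax het Atoh7 null libraries, 109.7 and 109 in the Bax null group, and 423 and 489 in the double mutant. In neurogenic cells the values were 1164 and 1233, 375 and 316, and 1204 and 1510. In RGC they were 3607 and 4183, 728 and 727, and 3757 and 4451. Within every library the levels of RPC, neurogenic cells and RGC were thus in the same order, although the Bax null libraries lay below the others in each type. The log2 ratio of neurogenic cells to RPC was 1.59 ± 0.10 (SD, n = 6 libraries), and that of RGC to RPC was 3.04 ± 0.25. Cones reached a log2 ratio of 2.19 ± 0.23 over RPC and horizontal cells 3.42 ± 0.11, which is 10.7-fold. For comparison, 34.6% of genes were higher in RGC than in RPC in all libraries, 33.7% in cones and 29.8% in horizontal cells. Of the neighbouring steps, 29.6% of genes were higher in cones than in neurogenic cells, 16.4% lower in cones than in RGC and 16.3% higher in horizontal cells than in RGC.

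Sox11, the close relative of Sox4, gave another order. Horizontal cells were again highest, followed by RGC, neurogenic cells and RPC, with 6 of 6 libraries in this order at each step, but cones and RPC were not separated. In RPC the levels were 704 and 696 CPM in the Bax het Atoh7 null libraries, 324 and 316 in the Bax null group, and 701 and 739 in the double mutant. In neurogenic cells they were 1896 and 1864, 874 and 794, and 1751 and 1977. In cones they were 721 and 717, 294 and 268, and 713 and 736, which lay above the RPC values in Bax het Atoh7 null, within them in the double mutant and below them in Bax null. The log2 ratio of cones to RPC was -0.05 ± 0.11 (SD, n = 6), with 3 libraries on each side of 0. That of cones to neurogenic cells was -1.44 ± 0.11, lower in all 6 libraries, as were 20.8% of genes. In the same step Sox4 was higher in cones, by a log2 ratio of 0.60. Horizontal cells exceeded RPC in Sox11 by 2.76 ± 0.11, a 6.77-fold ratio.

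Sox12 did not share the order of the other SoxC genes. It was lowest in neurogenic cells in all 6 libraries, with a log2 ratio to RPC of -0.89 ± 0.30 (SD, n = 6). Its levels in neurogenic cells were 23.4 and 19.9 CPM in the Bax het Atoh7 null libraries, 25.4 and 31.6 in the Bax null group, and 22.8 and 20.8 in the double mutant. In RPC the same libraries held 43.4 and 37.9, 41.7 and 41.7, and 52.0 and 48.2. In RGC they held 44.9 and 45.4, 61.1 and 64.3, and 54.1 and 55.4. RGC thus lay above neurogenic cells by 1.18 ± 0.17, in a step where 30.1% of genes were higher in all libraries. Cones were highest on average, but exceeded RGC in only 4 of 6 libraries, and RPC and horizontal cells were not separated (3 of 6).

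Sox2 ran the other way, highest in RPC and lowest in RGC. In RPC it stood at 412 and 472 CPM in the Bax het Atoh7 null libraries, 226 and 227 in the Bax null group, and 505 and 553 in the double mutant. In neurogenic cells the values were 295 and 338, 166 and 181, and 374 and 366. In RGC they were 91.4 and 101, 26.5 and 17.2, and 139 and 112. Every library kept the order of RPC above neurogenic cells above RGC. The log2 ratio to RPC was -0.46 ± 0.09 (SD, n = 6) in neurogenic cells and -2.56 ± 0.70 in RGC, while 33.7% of genes were lower in RGC than in RPC in all libraries and 29.9% lower in RGC than in neurogenic cells. Cones and horizontal cells lay between, at -1.84 and -1.5, and horizontal cells were above cones in 5 of 6 libraries. All 6 libraries had lower Sox2 in cones and in horizontal cells than in RPC, as did 23.8% and 24.8% of genes, lower Sox2 in horizontal than in neurogenic cells (19.9% of genes) and higher Sox2 in cones than in RGC (24.5% of genes).

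Sox9 had its highest level in RPC as well, between 61.9 and 115 CPM over the 6 libraries, and 36.8 to 56.4 CPM in neurogenic cells. The log2 ratio of neurogenic cells to RPC was -0.89 ± 0.18 (SD, n = 6) and that of RGC to RPC was -2.0 ± 1.08. The wide SD of the RGC ratio came with 2 low values, 9.16 and 4.77 CPM in Bax null, against 33.0 to 42.2 CPM in the other 4 libraries. Cones and RGC were not separated for Sox9, with 3 of 6 libraries in each order.

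Sox8 was scarce, with 896 UMIs in all cells of the 6 libraries. It was detected in RPC of every library, at 3.75 to 6.19 CPM. Neurogenic cells held 5 to 47 UMIs per library, 1.13 to 3.33 CPM, which was below RPC in 6 of 6 libraries. RGC held 1 to 11 UMIs, cones 0 to 3 and horizontal cells 0 to 7, so these types were not ordered for Sox8.

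**Figure D1:**
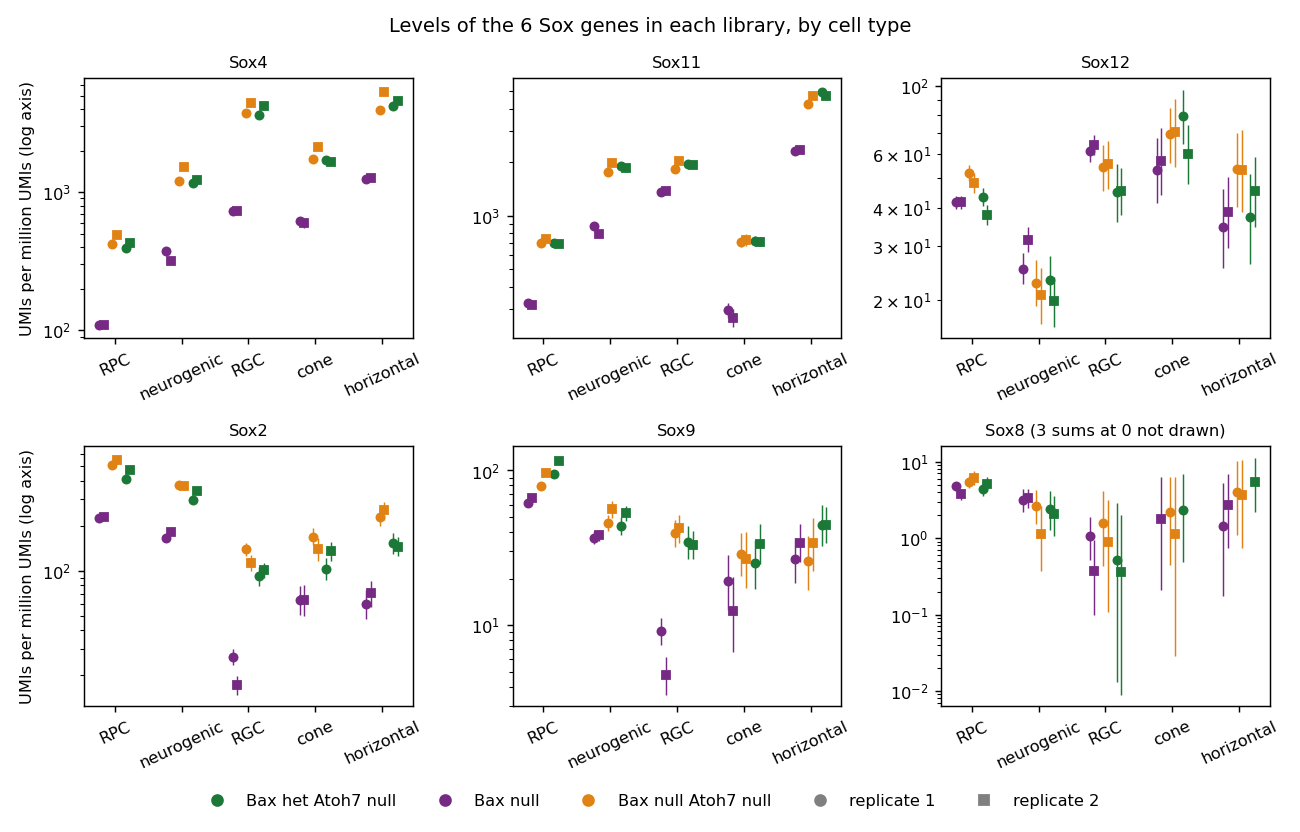
Levels of each Sox gene in CPM (log axis) for 5 cell types, 1 panel per gene; each point is a library, coloured by genotype group. Sox4 and Sox11 were lower in RPC than in RGC in all 6 libraries, Sox2 was the reverse, and the 3 Sox8 sums at 0 are not drawn.

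The balance of the classes was summarised as the share of SoxC UMIs among the UMIs of all 6 members, which counts molecules and sets no level of 1 gene against another per length. That share was 61.1% to 69.1% in RPC over the 6 libraries, 83.7% to 90.04% in neurogenic cells and 96.9% to 99.0% in RGC. Cones lay at 92.1% to 95% and horizontal cells at 97.0% to 98.0%. The ranges of RPC, neurogenic cells and RGC did not overlap. SoxC UMIs were thus the larger part in progenitors as well, at 1.57 to 2.23 SoxC UMIs for each progenitor Sox UMI.

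UMIs of both classes were found under the same cell barcodes. Depth differed between groups, so each cell was thinned to 1000 UMIs, and cells with fewer were left out (none in the Bax het Atoh7 null libraries, 166 and 169 in those of Bax null, 814 and 1261 in the double mutant). A thinned RPC held at least 1 UMI of a SoxC and of a progenitor Sox gene in 22.8% ± 10.9 of cells (mean and SD over 6 libraries). The share was 21.4% ± 9.4 in neurogenic cells and 8.7% ± 5.3 in RGC. With likely doublets left out, the 3 shares were 22.7%, 20.7% and 7.69%. A SoxC UMI was found in 56.8% of RPC, 82.9% of neurogenic cells and 95.1% of RGC. A progenitor Sox UMI was found in 37.3%, 25.4% and 8.9%. The mean share with a progenitor Sox UMI was thus lower, and that with a SoxC UMI higher, in each successive type, differences that were not tested. The mean shares with both in RPC and neurogenic cells lay within their SD over libraries of all groups. Within each Atoh7 null library the share with both was higher in RPC than in neurogenic cells. Within each Bax null library it was lower (8.88% and 9.42% in replicate 1, 9.10% and 9.61% in replicate 2).

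The thinned shares of cells with both classes, and with Sox2, were lowest in the Bax null group in RPC and RGC. This difference was not tested. Thinning sets a common total and leaves in place any shift of the average gene between groups. Scaled to totals alone, the median log2 change of all genes against Bax null shifted up in both Atoh7 null groups. The shift was 0.54 and 0.63 in RPC and 0.49 and 0.61 in RGC (Bax het Atoh7 null, then the double mutant). Its part in these shares was not tested. In RPC both classes were found together in 27.8% of cells in Bax het Atoh7 null, 8.99% in the Bax null group and 31.7% in the double mutant, and in RGC in 10.5%, 2.06% and 13.5%. Sox2 was found in 8.11%, 1.74% and 10.3% of RGC after thinning. Without thinning, Sox2 was found in 17.8% to 18.6% of RGC in Bax het Atoh7 null, 8.1% to 10.2% in the Bax null group and 16.8% to 20.7% in the double mutant, so that Bax null was again the lowest. In RPC the order turned without thinning: Sox2 was found in 64.6% to 65.3%, 66.5% to 71.2% and 59.6% to 62.9%, and both classes in 65.2% to 67.8%, 65.6% to 72.0% and 56.8% to 60.8%, in the same order of groups. Median depth was 1833.5 to 6683 UMIs per RGC and 1713 to 6977 per RPC. No type here lacks SoxC UMIs, so no background share was available for them, and the part of free RNA in these shares was not tested.

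The authors had split the 5 types into 142 clusters, each inside 1 type, which gives a finer view of the transition. Over 27 neurogenic clusters Sox4 ran from 144 to 2198 CPM, Sox11 from 429 to 2829 and Sox2 from 129 to 534. In neurogenic clusters with at least 50 cells, Sox2 and Sox4 ran against each other, with Pearson r of -0.74 over 26 clusters of the 4 Atoh7 null libraries and -0.79 over 20 clusters of Bax null. Sox2 and Sox9 ran together (0.75 and 0.70), as did Sox4 and Sox11 (0.68 and 0.91). In RPC clusters the relation of Sox2 to Sox4 had the other sign, at 0.50 over 77 clusters and 0.22 over 49. That of Sox2 to Sox11 was negative there, at -0.14 and -0.33. In RGC clusters Sox4 and Sox11 ran against each other, at -0.72 over 10 clusters and -0.28 over 16. Sox2 and Sox4 stood at -0.43 and 0.11 in the same RGC clusters. These correlations are descriptions, since clusters share libraries and were drawn from the same counts.

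Members were next compared between genotypes within each cell type. The edgeR quasi-likelihood test was run on the UMI sums of the 6 libraries for all genes that passed its filter on low counts, and an adjusted p (Benjamini-Hochberg) under 0.05 over all tested genes is described as called. Levels here are CPM scaled by TMM (trimmed mean of M values) factors, and changes are log2, on which 1 is a 2-fold difference, with the standard error (SE). In bulk sums of this kind, fewer cells of a subtype and less RNA per cell cannot be told apart. Of the 3 contrasts, the Atoh7 contrast is the double mutant minus Bax null, in which only Atoh7 differs by label. The Bax contrast is the double mutant minus Bax het Atoh7 null, and the joint contrast, in which both genes differ, is Bax het Atoh7 null less Bax null. The Atoh7 and joint contrasts share the Bax null libraries. All 6 members passed the filter in RPC and neurogenic cells, and all but Sox8 in RGC, cones and horizontal cells, which makes 27 tests per contrast.

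In the Atoh7 contrast 19 of 27 were called, 15 higher and 4 lower in the double mutant. The background was high, because 53.9% of all tested genes were called in RPC, 47.3% in neurogenic cells, 52.7% in RGC, 28.1% in cones and 29.2% in horizontal cells. In the joint contrast 18 were called, 14 higher and 4 lower in Bax het Atoh7 null, against 53.1%, 47.1%, 50%, 27.5% and 30.2% of all genes in the same types. Calls over all genes were split nearly evenly in direction. In the Atoh7 contrast 26.8%, 23.5%, 26.2%, 12.5% and 13.5% were called higher and 27.1%, 23.8%, 26.5%, 15.6% and 15.7% lower. In the joint contrast 26.6%, 23.4%, 25%, 12.7% and 14.4% were called higher and 26.5%, 23.8%, 25%, 14.8% and 15.8% lower. Without TMM, scaled to library totals alone, the median of all genes moved up by 0.44 to 0.63 in these contrasts and 23 members (22 higher, 1 lower) and 21 members (19 higher, 2 lower) were called. The calls below are therefore relative to the average gene.

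Sox4 was lower in Bax null than in both Atoh7 null groups in all 5 cell types. In RGC its TMM-scaled level was 3294 and 3857 in Bax het Atoh7 null, 930.1 and 946 in the Bax null group, and 3241 and 3686 in the double mutant. No Bax null library overlapped the other groups. The log2 change was 1.89 ± 0.14 (SE; edgeR adjusted p = 2.7e-07) in the Atoh7 contrast and 1.93 ± 0.14 (edgeR adjusted p = 2.6e-07) in the joint contrast. In RPC it was 1.42 ± 0.09 and 1.38 ± 0.09, and in cones, the smallest of the 5, 1.11 ± 0.15 and 1.02. The Sox4 calls in all 5 types and both contrasts were kept under every alternative run.

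Sox11 was called in 4 of the 5 types but not in RGC. In RPC it was 0.54 ± 0.09 higher in the Atoh7 contrast (edgeR adjusted p = 0.00095), and in cones 0.81 ± 0.13 (edgeR adjusted p = 0.00011). In neurogenic cells the change was 0.57 ± 0.12, which lost its call without Bax null replicate 2. In horizontal cells it was 0.41 ± 0.14 (edgeR adjusted p = 0.036), a call that was lost with DESeq2, with only the 4 libraries compared, with thinned counts, with TMM factors from all cells of a library and without any 1 library of Bax null or Bax het Atoh7 null. The joint contrast there (0.60 ± 0.14) lost its call without either Bax null library. In RGC its TMM-scaled level was 1791 and 1788 in Bax het Atoh7 null, 1742 and 1803 in the Bax null group, and 1578 and 1690.0 in the double mutant. The ranges of Bax null and Bax het Atoh7 null overlapped and the double mutant lay below both, with log2 changes of -0.12 ± 0.12 (edgeR adjusted p = 0.42) and 0.01 ± 0.12 (edgeR adjusted p = 0.93). Without TMM the same RGC changes were 0.49 and 0.51, both called, so that the direction in RGC depended on the scaling.

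Sox12 was called in 3 types, always lower in the Atoh7 null groups, the reverse of Sox4. In RGC its TMM-scaled level was 41.0 and 41.9 in Bax het Atoh7 null, 78.0 and 83.7 in the Bax null group, and 46.7 and 45.9 in the double mutant. The Bax null libraries lay above the other 4, with changes of -0.80 ± 0.10 (edgeR adjusted p = 4.0e-05) and -0.96 ± 0.11 (edgeR adjusted p = 1.6e-05). It was also lower in neurogenic cells (-0.97 ± 0.15 and -0.92) and in RPC (-0.36 ± 0.10 and -0.57), and was not called in cones or horizontal cells. Without TMM the RPC change in the Atoh7 contrast turned to 0.27, that of the joint contrast lost its call at -0.03, and the RGC change in the Atoh7 contrast shrank to -0.19 and lost its call. Leaving out Bax null replicate 1 or 2 also ended the RPC call in that contrast, at edgeR adjusted p = 0.062 and 0.073.

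Sox2 was higher in both Atoh7 null groups in RPC, neurogenic cells, RGC and horizontal cells, with the largest change in RGC. In RGC its TMM-scaled level was 83.5 and 92.9 in Bax het Atoh7 null, 33.9 and 22.4 in the Bax null group, and 119.8 and 93.2 in the double mutant. The Bax null libraries were the 2 lowest. The changes were 1.92 ± 0.17 (SE; edgeR adjusted p = 1.7e-06) in the Atoh7 contrast and 1.66 ± 0.18 (edgeR adjusted p = 1.0e-05) in the joint contrast. In RPC the changes were 0.59 ± 0.10 and 0.43, and in neurogenic cells 0.50 ± 0.11 and 0.36. The second value of RPC lost its call without either Bax null library or without Bax het Atoh7 null replicate 2, at edgeR adjusted p between 0.052 and 0.059, and the second value of neurogenic cells without any of the same 3 libraries. In cones only the Atoh7 contrast was called (0.75 ± 0.18, against 0.46 ± 0.18 with edgeR adjusted p = 0.060), and with DESeq2 it was not. In horizontal cells the changes were 1.35 ± 0.14 and 0.74 ± 0.15. In cones the joint contrast was called under 7 alternatives, among them the scaling without TMM, at 0.91.

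Sox9 was called in RGC and in none of the other 4 types. Its TMM-scaled level in RGC was 31.5 and 30.4 in Bax het Atoh7 null, 11.7 and 6.21 in the Bax null group, and 34.0 and 34.9 in the double mutant. The changes were 1.95 ± 0.22 (edgeR adjusted p = 1.4e-05) and 1.79 ± 0.23 (edgeR adjusted p = 5.2e-05). In the other 4 types the Sox9 changes in these contrasts lay between -0.58 and 0.44 and were not called. Sox8 was lower in neurogenic cells of the Atoh7 null groups (-1.28 ± 0.36, edgeR adjusted p = 0.012, and -1.06 ± 0.35, edgeR adjusted p = 0.025). Those sums held 5 to 16 UMIs in the Atoh7 null libraries and 36 and 47 in the Bax null group, and both calls were lost without TMM, with DESeq2 and without Bax null replicate 2. The call of the Atoh7 contrast was also lost without double mutant replicate 2, and that of the joint contrast with thinned counts and without any 1 of its 4 libraries.

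In the Bax contrast, with Atoh7 absent from both groups, 1 of 27 was called. Sox2 in horizontal cells stood at 139 and 135 TMM-scaled CPM in the libraries of Bax het Atoh7 null, against 202 and 213 in the double mutant, a change of 0.60 ± 0.13 (edgeR adjusted p = 0.016). Among all genes, 1.61% were called in horizontal cells (0.067% higher), 2.01% in RPC, 1.77% in neurogenic cells, 2.34% in RGC and 1.46% in cones. The Sox2 call did not hold when the shared barcodes were left out of both libraries (0.45, adjusted p = 0.27 with edgeR), with DESeq2, with likely doublets left out, or without either Bax het Atoh7 null library. The other 26 changes ran from -0.68 (Sox9 in horizontal cells, edgeR adjusted p = 0.27) to 0.29 (Sox2 in cones).

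**Figure D2:**
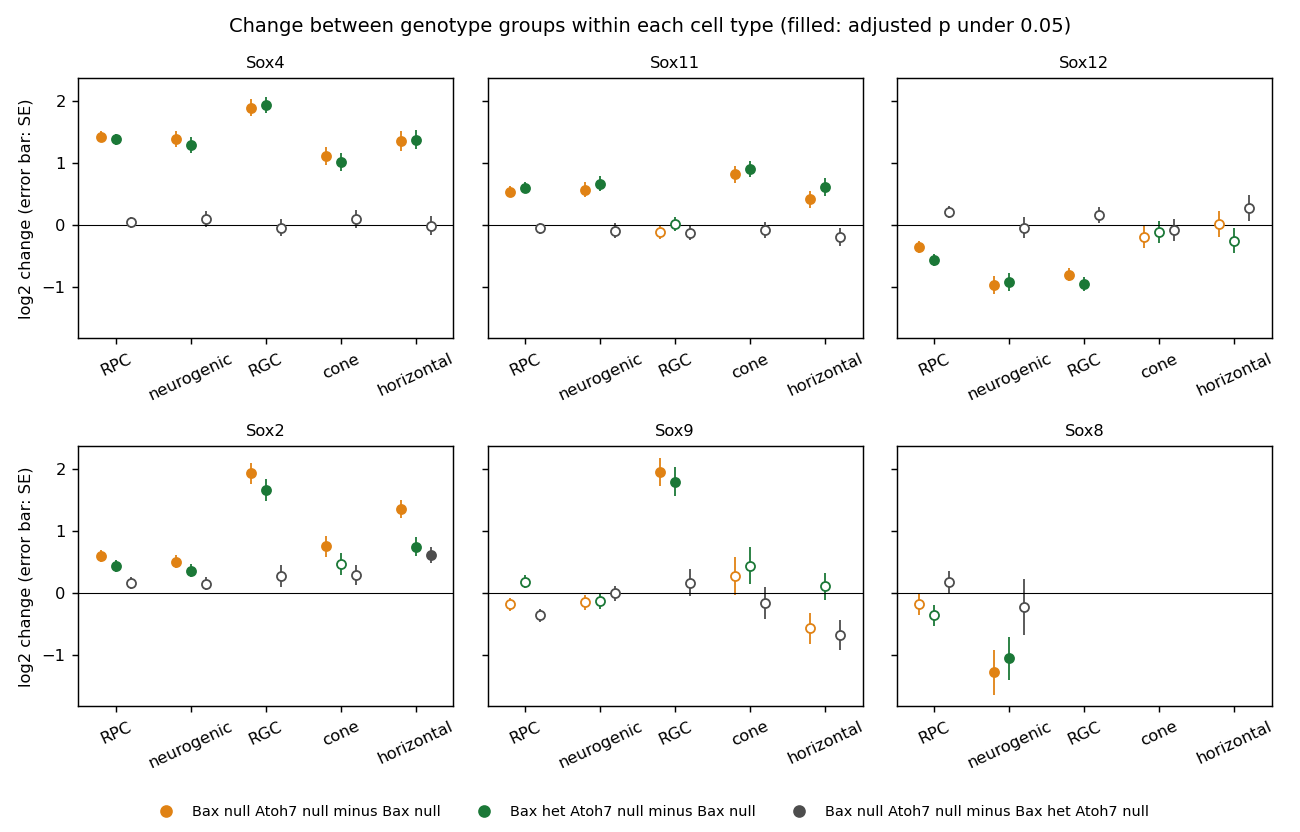
Log2 change of each member between genotype groups (axis in log2 units, edgeR estimate with bars of 1 SE), by cell type, with 1 colour per contrast; filled points have an adjusted p under 0.05. Sox4 was called in all 5 types in both contrasts with Bax null, with 1.89 and 1.93 in RGC, and Sox9 only in RGC.

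Whether the step between cell types itself differed by genotype was tested within libraries, with a term for each library and an interaction of cell type and group over 12 sums. A factor common to a library cancels in this test. Of 17 member tests, 7 were called in the Atoh7 contrast, 7 in the joint contrast and 0 in the Bax contrast. In the Bax contrast 1 of 17 had an unadjusted p under 0.05, by edgeR as by DESeq2, which called 0 as well. The background for RGC minus neurogenic cells was 16.7%, 16.2% and 0.0243% of all genes in the same order, with 8.02% higher and 8.72% lower in the Atoh7 contrast and 7.09% higher and 9.09% lower in the joint contrast. It was 7.46%, 8.35% and 0.0% for neurogenic cells minus RPC, and 5.99%, 6.64% and 0.0173% for cones minus neurogenic cells. On simulated counts the test of neurogenic cells minus RPC recovered 18% of genes changed by a log2 of 1. The simulation drew the sums of a library independently and gave all genes the same set spread. The share recovered is therefore not the power for the members. A step that was not called may still differ.

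No difference between groups was called in the step from RPC to neurogenic cells for Sox4, Sox11 or Sox2. For Sox4 the log2 step was 1.54 ± 0.03 in Bax het Atoh7 null, 1.65 ± 0.17 in the Bax null group and 1.57 ± 0.08 in the double mutant (SD, n = 2 each), from plain CPM. For Sox11 it was 1.43 ± 0.01, 1.38 ± 0.07 and 1.37 ± 0.07. The difference in step, in the Atoh7 contrast, was -0.02 ± 0.05 (SE) for Sox4, 0.05 ± 0.04 for Sox11 and -0.06 ± 0.05 for Sox2, none of them called. Sox12 was called in that contrast (-0.60 ± 0.13, edgeR adjusted p = 0.0011), but not with DESeq2 or without Bax null replicate 2. Sox9 was called in the joint contrast (-0.30 ± 0.09, edgeR adjusted p = 0.024), but not with DESeq2, with likely doublets left out, with thinned counts or when any 1 of the 4 libraries of that contrast was left out.

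The step from neurogenic cells to RGC differed in 4 of the 6 members, in both contrasts with Bax null. The Sox2 step was -1.72 ± 0.04 in Bax het Atoh7 null, -3.02 ± 0.53 in the Bax null group and -1.56 ± 0.19 in the double mutant (log2, SD, n = 2 each). The Bax null group thus had the steepest step down in Sox2. The difference was 1.44 ± 0.12 (SE; edgeR adjusted p = 2.5e-14) in the Atoh7 contrast and 1.27 ± 0.13 (edgeR adjusted p = 1.6e-11) in the joint contrast. The Sox9 step showed the same, at -0.51 ± 0.24, -2.50 ± 0.70 and -0.32 ± 0.14, with differences of 2.12 ± 0.20 and 1.89 ± 0.20. For both genes the SE, which draws on all tested genes, was smaller than the SD of the Bax null step.

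The SoxC genes split in this step. Sox4 stood higher in RGC by 1.70 ± 0.09 in Bax het Atoh7 null, 1.08 ± 0.17 in the Bax null group and 1.60 ± 0.06 in the double mutant, with differences of 0.52 ± 0.06 (edgeR adjusted p = 3.3e-10) and 0.61 ± 0.06 (edgeR adjusted p = 1.9e-12). Sox11 gave the opposite pattern, a step of 0.05 ± 0.01 in both Atoh7 null groups and 0.72 ± 0.11 in Bax null. Its differences were -0.67 ± 0.05 (edgeR adjusted p = 3.6e-15) and -0.67 ± 0.05 (edgeR adjusted p = 3.0e-15). The Sox12 differences, 0.18 and -0.06, were not called, nor were those of Sox8. These 8 calls of Sox2, Sox9, Sox4 and Sox11 were kept under every alternative run, the scaling without TMM included, in which the median of all genes moved by less than 0.1.

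In the step from neurogenic cells to cones, Sox12 stood higher in cones by 1.68 ± 0.12, 0.96 ± 0.16 and 1.68 ± 0.11 (log2, SD, n = 2 each, groups in the same order). The differences of 0.80 ± 0.20 and 0.82 ± 0.20 were called (edgeR adjusted p = 0.0066 and 0.0034). The Sox11 differences were 0.31 ± 0.07 and 0.27 ± 0.07. Both genes lost their calls with DESeq2 and with thinned counts, and Sox11 also without TMM. With the shared barcodes left out of both libraries, the Sox11 difference of the Atoh7 contrast was 0.17 and was not called. Without Bax null replicate 2, both Sox12 calls and the Sox11 call of the joint contrast were lost, and other single libraries ended some of these calls as well.

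**Figure D3:**
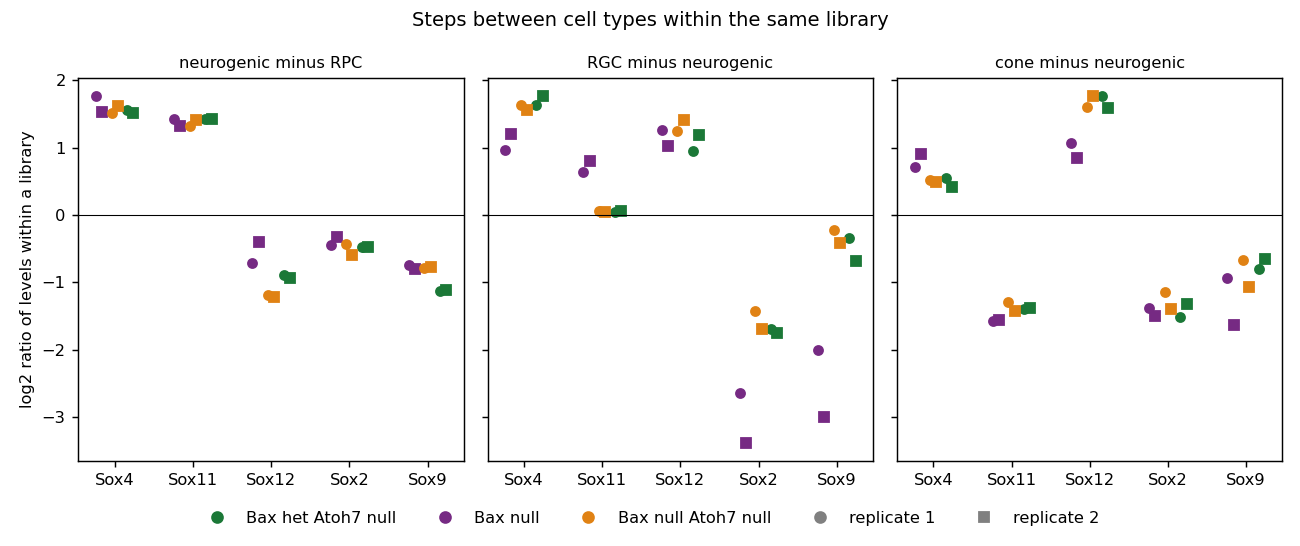
Log2 ratio of a gene's level between cell types of the same library, for neurogenic cells over RPC and RGC over neurogenic cells; points are libraries, coloured by group. From neurogenic cells to RGC the Bax null libraries lay lowest for Sox2, Sox9 and Sox4 and highest for Sox11.

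The RGC label did not hold the same cells in each group. Clusters 46, 53, 63, 90 and 62 held 75.7% of the RGC of Bax het Atoh7 null and 72.8% of those of the double mutant, while clusters 9, 19, 44, 92 and 67 held 50.6% of the RGC of Bax null. In RGC all 6 RPC markers were detected in every group, at a summed 447 to 597 CPM in the Bax null group and 972 to 1356 in the Atoh7 null groups. All 7 neurogenic markers were detected as well, at 989 to 1025 and 1720 to 2127 CPM. The RGC markers summed to 12050 to 12584 CPM in Bax null and 8049 to 10733 in the other groups. The Muller glia markers summed to 54.4 to 56.6 CPM in the Bax null group and 129 to 159 in the others, with 2 to 4 of 4 detected, and the amacrine markers to 12.4 to 13.0 and 99.5 to 134 CPM. All these sums are plain CPM, which carries the library shift: without TMM the median of all genes in RGC lay 0.49 (joint contrast) and 0.61 (Atoh7 contrast) higher. The Muller glia sums were higher in the Atoh7 null groups in every other type as well, in RPC at 218 to 264 CPM against 144 to 147. Among the RPC markers, Hes1 changed down and Ccnd1 up in RGC in the Atoh7 contrast, as given below. The part of these markers in the Sox changes was not tested.

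The 4 RGC clusters 44, 53, 90 and 92 held more neurogenic than RGC marker UMIs. They made up 26.1% of the 7357 RGC, with 20.2% to 20.3% in the Bax null group and 29.5% to 35.4% in the Atoh7 null libraries. Without them, a choice made after seeing the data, the changes in RGC were 1.67 and 1.41 for Sox2, 2.08 and 1.74 for Sox9, and 1.90 and 1.94 for Sox4, in the Atoh7 and the joint contrast. The step differences were 1.19 and 1.02 for Sox2, 2.26 and 1.85 for Sox9, 0.54 and 0.63 for Sox4, and -0.56 and -0.53 for Sox11. All of these calls were kept.

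Levels were also read inside single clusters. Clusters 9, 62, 63, 90 and 100 held at least 50 cells of each group. In all 5, the plain CPM of Sox4, Sox11, Sox2 and Sox9 was higher in both Atoh7 null groups than in Bax null, and that of Sox12 in 3 of the 5. Plain CPM carries the library shift described above: in RGC the median of all genes lay 0.49 and 0.61 higher (log2) in the joint and the Atoh7 contrast without TMM. These directions differ from the TMM-scaled values of RGC for Sox11, which was not called, and for Sox12, which was called lower. For Sox12 the plain CPM of all RGC was lower as well, at 44.9 to 55.4 in the Atoh7 null libraries against 61.1 and 64.3 in Bax null. Why the clusters differed from all RGC for Sox12 was not tested. In cluster 9 Sox2 stood at 12.1 CPM in 438 cells of Bax null (exact Poisson 95% interval 8.30 to 17.1, counting error only), 100.4 in Bax het Atoh7 null (71.1 to 138) and 160.1 in the double mutant (115 to 216). In cluster 62, which led with stress genes such as Atf3 and Trib3, it stood at 6.41 (1.32 to 18.7), 48.3 (31.5 to 70.7) and 75.4 (58.2 to 96.1). Sox4 in cluster 9 stood at 840 CPM (806 to 876), 3054 (2881 to 3236) and 2878 (2677 to 3091). The intervals of Bax null lay apart from the others in these examples. For Sox9 they did not always: in cluster 63 it stood at 13.2 (6.02 to 25), 22.1 (12.4 to 36.5) and 24.9 (14.3 to 40.5).

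**Figure D4:**
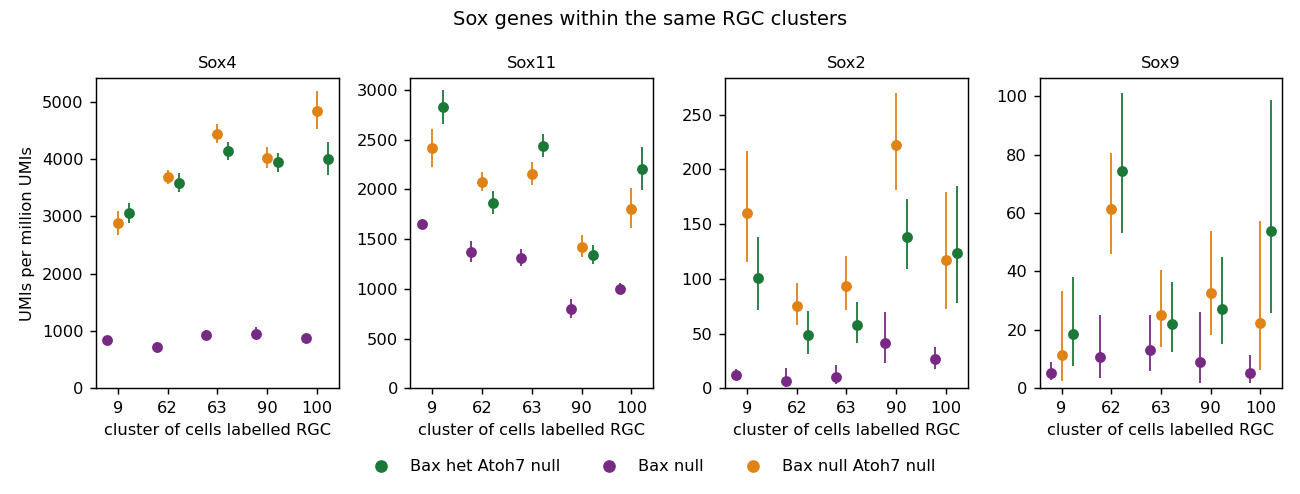
Levels of Sox genes (CPM, libraries of a group pooled, exact Poisson 95% intervals) in the RGC clusters with at least 50 cells in each group. In cluster 9, Sox2 stood at 12.1 in Bax null, 100.4 in Bax het Atoh7 null and 160.1 in the double mutant.

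The next lists place the members among genes they are known to work with. Of 12 progenitor genes known as partners or targets of Sox2, 10 were called in RGC in the Atoh7 contrast, 7 higher and 3 lower, with a median change of 0.72 (0.02 over all genes). In the joint contrast 11 were called, 6 higher and 5 lower, with a median of 0.45 (0.01 over all genes). Of all genes tested in RGC, 52.7% and 50% were called in these contrasts. In the Atoh7 contrast Fabp7, a fatty acid binding protein of radial progenitors, rose by 3.61 ± 0.14, the eye field factor Lhx2 by 1.48, the cell cycle gene Ccnd1 by 1.39 and the intermediate filament gene Nes by 1.04. Hes1, an effector of Notch, changed by -1.97 and the eye field factor Pax6 by -1.16. For the step from neurogenic cells to RGC, 11 of the 12 were called in both contrasts, 10 higher and 1 lower, with medians of 1.04 and 1.03, against 16.7% and 16.2% of all genes called. For the step from RPC to neurogenic cells, 9 were called in both contrasts, 1 higher and 8 lower, against 7.46% and 8.35% of all genes.

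Of 9 tested genes of early neurons, several of them known as SoxC targets, 5 were called in RGC in the Atoh7 contrast, all lower, with a median of -0.36. In the joint contrast 4 were called, all lower, with a median of -0.23. With direction left aside, these counts lie near the 52.7% and 50% of all tested genes called. All of them were lower, whereas 26.5% and 25% of all tested genes were called lower, a difference that was not tested. Stmn1, a regulator of microtubules, changed by -2.17, the RNA-binding protein gene Elavl4 by -1.06, Map2 by -0.97 and the neuronal tubulin gene Tubb3 by -0.55, while Dcx, at -0.05, was not called. In the same comparison Sox4 rose and Sox11 was not called. In RPC the list gave 8 calls in the Atoh7 contrast, 5 higher and 3 lower, and 7 in the joint contrast, 5 higher and 2 lower, where 53.9% and 53.1% of all genes were called. For the step from neurogenic cells to RGC, 7 were called in the Atoh7 contrast, all lower, with a median of -0.60. In the joint contrast 9 were called, 1 higher and 8 lower, with a median of -0.73. For the step from RPC to neurogenic cells, 4 were called in both contrasts, 1 higher and 3 lower. The shares of all genes called in these steps are those given for the progenitor list. Both lists were written with earlier results of these data known.

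Over the 30 sums of 6 libraries and 5 cell types, centred within each library, the members fell into the order of their classes with 1 exception. Sox4 and Sox11 had a Pearson r of 0.72, Sox2 and Sox9 of 0.89, and Sox4 and Sox2 of -0.77, whereas Sox12 reached only 0.21 with Sox4. The 30 sums share libraries, depth and cell type labels. Among 5918 genes with a mean of at least 20 CPM, the genes most like Sox4 were Gm26735 (0.99), Onecut2 (0.99) and Epb41 (0.98). Gm26735 overlaps Sox4 on the opposite strand, with 2630 UMIs against 162387 for Sox4. The sources used here do not say whether strand was used in counting, and whether reads of Sox4 were counted for Gm26735 was not tested. The genes most like Sox11 were Ccdc182 (0.97), Rnf165 (0.96) and Marcksl1 (0.95), and those most like Sox2 were Lhx2 (0.97), Id1 (0.97) and Rpl37a (0.96). For Sox9 they were Mybbp1a, Lhx2 and Negr1 (0.91 each), for Sox12 Pja1 (0.92), Bad (0.90) and Msrb1 (0.90), and for Sox8 Nup43 (0.80), Rps3 (0.80) and Mlec (0.79). A likeness above 0.9 was shared by 256 genes for Sox4, 214 for Sox2, 21 for Sox11, 5 for Sox9, 2 for Sox12 and 0 for Sox8.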

How the data were processed

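Raw UMI counts of single cells were used as deposited; the authors made them with Cell Ranger 1.2.1 on mm10, per the submitters' processing notes. The matrix covered 93128 cells, of which 67050 belonged to the 6 libraries, and the cell table covered 2 further libraries, not used here. Cell types, clusters and gene symbols were those the authors deposited. The members and gene lists were chosen with earlier results of these data known. The values of 1 marker gene are not reported here.

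Counts were summed per library and cell type, because the library and not the cell is the replicate. The sums held 826841 to 38954120 UMIs. Genes were filtered with filterByExpr, scaled with TMM and tested with edgeR 4.0.16 (quasi-likelihood F test, R 4.3.3, two-sided), all 6 libraries in 1 fit, adjusted over all genes tested. With 2 libraries a group, an exact permutation cannot give a p below 0.33. Deviations of samples sharing a replicate number correlated at 0.037 to 0.287 between Bax het Atoh7 null and the double mutant and at -0.097 to 0.052 in pairs with Bax null. With 2 replicates and no label that ties the numbers to an animal or batch, they were not taken to pair the libraries, and the block was run as an alternative. Genes named in the text were the members, the fixed lists and markers, and the 3 genes most like each member (Pearson r of log2(CPM + 1)). Likely doublets (in each library, the 8% of cells that Scrublet in scanpy 1.11.5 scored highest) were kept, and left out as an alternative. Other alternatives were DESeq2 1.42.0, RLE factors, no filter, the replicate block, only 4 libraries, thinned counts, cells over 1000 UMIs, TMM over all cells of a library, and each library left out. The test was tried on simulated counts of the Atoh7 contrast, in which 200 genes changed by a log2 of 1 and all genes had the same set spread. It recovered 81% of these genes in RPC, 63% in RGC and 18% for neurogenic cells minus RPC, with 12, 3 and 1 false calls. Promoters came from RefSeq (GRCm38.p6), which had an entry for 5 of the 6 members, and gene positions from GENCODE vM21, which held 27645 of the 27998 identifiers. Intervals cover counting error only.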

Additional observations from a re-analysis of the deposited data

Results flagged for a closer look

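For 14 results the step between cell types differed between genotype groups by the test of the difference itself (edgeR interaction term over 12 sums). In the step from neurogenic cells to RGC, the double mutant exceeded Bax null by 1.44 for Sox2, 2.12 for Sox9 and 0.52 for Sox4, and lay below it for Sox11 at -0.67 (log2). Bax het Atoh7 null gave 1.27, 1.89, 0.61 and -0.67 against the same 2 Bax null libraries. In the step from neurogenic cells to cones, Sox12 gave 0.80 and Sox11 0.31 for the double mutant, and 0.82 and 0.27 for Bax het Atoh7 null. In the step from RPC to neurogenic cells, Sox12 gave -0.60 for the double mutant and Sox9 gave -0.30 for Bax het Atoh7 null. All 14 set Atoh7 null libraries against Bax null, whose depth and mitochondrial share also differ. Their part in these steps was not tested.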

How the results depend on the processing

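Of 63 single-gene results, 37 kept their direction and their side of the threshold under every alternative. Over 1175 values under alternatives, 1080 kept both, 68 lost a call, 12 gained one and 15 changed sign. In the Bax contrast the 1 called member became 0 with DESeq2, with doublets left out and with shared barcodes left out of both libraries, and ranged from 0 to 1 with each library left out. Of 7 step calls in each contrast with Bax null, DESeq2 kept 4 in the Atoh7 contrast and 4 in the joint contrast, where thinned counts also gave 4 and leaving out each library 4 to 8. With the replicate block, member calls were 19, 1 and 18 and step calls 9, 0 and 8; the replicate numbers were not shown to pair the libraries.

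Between neurogenic cells and RPC, the mean of each cell's CPM gave 1.45 for Sox11, -0.59 for Sox2 and -1.09 for Sox9, and leaving out doublets gave 1.51 for Sox11 and -0.56 for Sox2. Thinned to 2000 UMIs, both classes were found in 46.3% of RPC, 41.8% of neurogenic cells and 15.4% of RGC, SoxC in 77.5% of RPC, and progenitor Sox in 57.7%, 44.1% and 15.4%.

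Without TMM, Sox12 in RPC (the Atoh7 contrast) turned to 0.27 and Sox11 in RGC to 0.49. All other changes of sign were in values near 0. Sox11 in RGC (the joint contrast) was -0.0025 with RLE factors and with DESeq2, -0.0079 with no filter, and ran from -0.015 (without Bax null replicate 1) to 0.038 with each library left out. In the step from RPC to neurogenic cells, Sox4 ran from -0.15 to 0.096 in the Atoh7 contrast and from -0.20 to 0.042 in the joint contrast with each library left out, turning positive without Bax null replicate 1 in both and, at 0.047, without double mutant replicate 1 in the former. Sox11 in the Atoh7 contrast was -0.012 with doublets left out, -0.013 without TMM, -0.0051 without Bax null replicate 2, and ran from -0.015 (without double mutant replicate 2) to 0.11 with each library left out. Sox2 in the joint contrast was 0.027 with doublets left out and ran from -0.12 to 0.00015 (without Bax null replicate 2) with each library left out. The causes were not tested. The alternatives on scaling without TMM, shared barcodes and RGC clusters were chosen after seeing the data. Sox8 held 0 to 11 UMIs per library in RGC, cones and horizontal cells.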

Other observations

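Among 13 other Sox genes, Sox3, a SoxB1 relative of Sox2, stood at 20.4 to 24.3 CPM in RPC, 15.5 to 26.5 CPM in neurogenic cells and 3.19 to 6.27 CPM in RGC. Unlike Sox2, Sox3 was called lower in RPC in the Atoh7 contrast (log2 change -0.55, edgeR adjusted p = 0.0023) and in the joint contrast (-0.42, edgeR adjusted p = 0.0087). Both calls are relative to the average gene. Without TMM the median of all genes in RPC lay 0.63 and 0.54 higher, and plain CPM of Sox3 in RPC had the narrow range above. In RPC, 3 of the 6 tested genes of this list were called in each of these contrasts, all lower, near the 53.9% and 53.1% of all genes called. Sox6 was at 4.63 to 14.4 CPM in cones and 0.924 to 1.42 CPM in RPC.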
